A study of Mus musculus with 48 samples.

Results

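The NR4A nuclear receptors of the mouse are encoded by Nr4a1, Nr4a2 and Nr4a3, and 24 of the 53868 accessible regions (peaks) in the ATAC-seq table analysed here were assigned to them. A peak belonged to a gene when it overlapped the body of that protein-coding gene. Where it overlapped several, the gene with a boundary nearest the middle of the peak was taken, and a peak over no gene went to the nearest gene body within 100 kb. Nr4a1 held 6 peaks, Nr4a2 held 3 and Nr4a3 held 15. Of the 24 peaks, 11 lay over the gene bodies and 13 outside them. The assignment of peaks to the genes used positions alone.

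ATAC-seq marks open chromatin by the places where the transposase Tn5 can insert adapters. All 48 libraries came from Cas9-expressing CD45.1 OT-1 CD8 T cells, whose transgenic T cell receptor recognises ovalbumin. The cells carried 1 guide RNA from a lentiviral vector, had been transferred into aged or young mice bearing B16-OVA, a melanoma made to express ovalbumin, and were sorted from the tumours on day 15. The guides were OTC, used as the control and known here only by that name, and guides to Zfp219, a zinc finger protein gene, and to Dusp5, which encodes a phosphatase of ERK; the labels call the last 2 knockouts. Cells were gated as Tprog (Slamf6 positive, Tim-3 negative), Ttran (both positive), Tterm (Slamf6 negative, Tim-3 positive) or Ttad (both negative). Aged hosts gave 2 libraries for each guide in each of the 4 states. Young hosts gave 2 libraries per guide for Tprog, 3 for Ttran and 3 for Tterm, and Ttad is represented by aged hosts alone, so the libraries form 21 groups. Each library is a pool of cells from several mice, and which mice entered which pool, and the hosts' age in weeks, are not given in the sources used here. Accessibility does not report whether a guide disrupted its gene, and editing was not analysed here.

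NR4A proteins are transcription factors that act without a classical ligand and bind DNA as monomers, as dimers or together with retinoid X receptors. In T cells the 3 genes are switched on within the first wave of transcription after the T cell receptor is engaged, largely through calcium, calcineurin and NFAT, and NR4A1 protein (also called Nur77) is widely used as a mark of recent receptor signalling. In tumours and chronic infection, sustained antigen keeps these genes expressed, and NR4A factors are known for their part in the exhausted state of CD8 T cells.

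The 250 bases upstream of each RefSeq start site (GRCm38.p6) are shown because each gene has a peak over its start site that covers this window. Capitals mark the core of the cyclic AMP response element, TGACG on either strand (CGTCA when read on the strand shown). The Nr4a1 promoter is chr15:101266596-101266845 on the plus strand, the Nr4a2 promoter chr2:57124004-57124253 on the minus strand and the Nr4a3 promoter chr4:48045055-48045304 on the plus strand.
Nr4a1: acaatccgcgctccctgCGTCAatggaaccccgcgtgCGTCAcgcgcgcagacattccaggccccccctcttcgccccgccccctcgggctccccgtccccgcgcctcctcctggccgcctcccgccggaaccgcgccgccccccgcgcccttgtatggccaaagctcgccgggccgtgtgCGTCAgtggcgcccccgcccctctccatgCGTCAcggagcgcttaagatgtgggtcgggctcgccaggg
Nr4a2: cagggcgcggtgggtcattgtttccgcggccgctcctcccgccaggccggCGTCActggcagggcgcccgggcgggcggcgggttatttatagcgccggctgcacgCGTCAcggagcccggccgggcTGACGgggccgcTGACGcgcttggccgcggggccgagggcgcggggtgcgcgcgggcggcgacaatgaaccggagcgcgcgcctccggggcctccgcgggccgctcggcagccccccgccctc
Nr4a3: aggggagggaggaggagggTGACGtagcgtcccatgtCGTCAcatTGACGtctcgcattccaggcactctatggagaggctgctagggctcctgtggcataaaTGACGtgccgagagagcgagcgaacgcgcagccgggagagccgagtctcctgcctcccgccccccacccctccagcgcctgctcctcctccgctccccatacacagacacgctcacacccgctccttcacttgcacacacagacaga

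Each of the 3 promoters holds 4 such cores. Among all 32851 RefSeq promoter windows of this length, 17.8% hold at least 1, 3.9% at least 2 and 0.137% at least 4; the core was picked for this count after the sequences had been seen. The sequences are rich in G and C, at 74.4% for Nr4a1, 80% for Nr4a2 and 63.6% for Nr4a3. The other motifs searched on both strands had no match in any of the 3 windows: the full element TGACGTCA (in 1.55% of all windows), AP-1 as TGANTCA (6.75%), NFAT as GGAAAA (20.4%), the NR4A monomer element AAAGGTCA (1.34%), RUNX as TGTGGT (14%), ETS as CCGGAAG (6.91%) and the E-box CACGTG (6.02%). A match or its absence describes the letters in this window and no more.

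Peaks are named below by gene and by the distance in kb from the RefSeq start site to the middle of the peak, with a minus sign for upstream. Values are the deposited read counts divided by a size factor of the library, called normalized reads here. Nr4a1 spans chr15:101253902-101274795 on the plus strand, and its start site at 101266846 lies inside the +0.4 kb peak. The gene body in RefSeq begins further upstream, within the -12.7 kb peak, so the -10.4 kb and -8.3 kb peaks lie in the body but ahead of that start site. Averaged over the 48 libraries, Nr4a1 had 1148 normalized reads at -20.1 kb, 591 at -12.7 kb, 97.8 at -10.4 kb, 784 at -8.3 kb, 1158 at +0.4 kb and 154 at +9.0 kb, which starts 182 bp beyond the gene. The start site peak and the -20.1 kb peak thus carried near equal shares of the gene's signal, 29.4% and 29.2%.

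Nr4a2 spans chr2:57106830-57124003 on the minus strand. Its signal sat in 1 peak: the +8.1 kb peak, at chr2:57114252-57117649 and 3398 bp wide, averaged 3043 normalized reads or 81.2% of the gene's total. The peak over the start site averaged 451, and the +21 kb peak, 3268 bp past the end of the gene, averaged 253.

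Nr4a3 spans chr4:48045078-48086447 on the plus strand and had the most peaks. The strongest was the -2.1 kb peak, at chr4:48042600-48043775, with 1709 normalized reads on average, followed by the start site peak at -0.1 kb with 1011 and the +29.7 kb peak inside the gene with 649. Per kb of peak width the -2.1 kb peak was the most accessible of all 24, at 1454 normalized reads per kb. Further intragenic peaks lay at +2.7, +5.0 and +27.9 kb (290, 334 and 302 normalized reads), and the +42.1 kb peak began 158 bp past the gene's end with 143. Upstream, the -33.0 kb peak averaged 336, while the -97.4, -87.2, -80.5, -77.6 and -15.6 kb peaks averaged 24.7 to 89.3 normalized reads, so counting error weighs most on these. All peaks had reads in all 48 libraries except the -87.2 kb peak, which had none in 1.

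**Figure D1:**
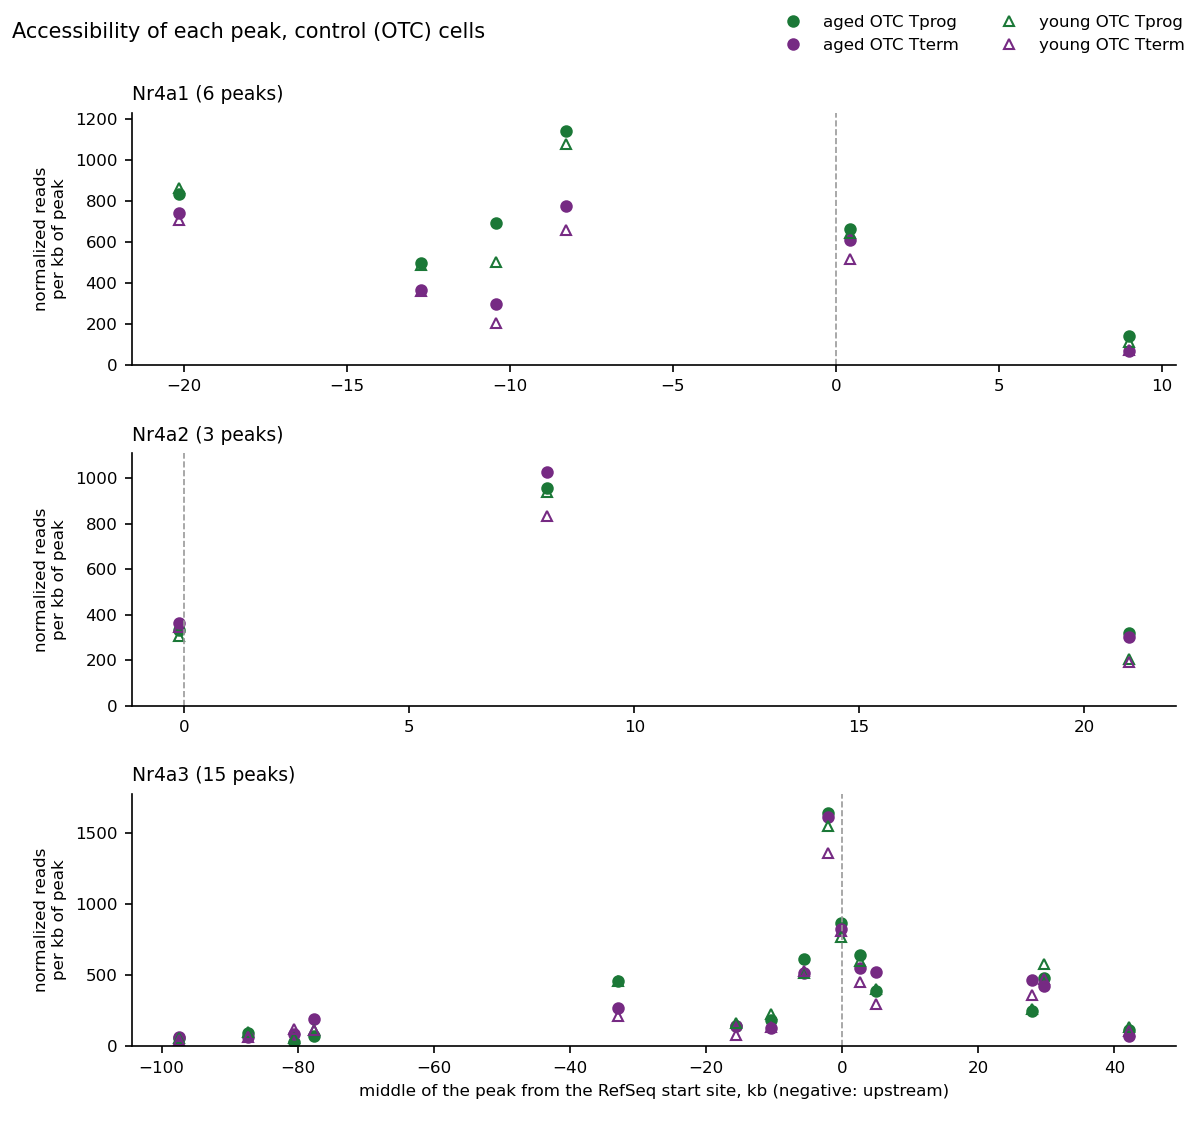
Group mean normalized reads per kb of peak width (vertical axis, from 0) against the distance of the peak's middle from the RefSeq start site in kb (horizontal axis). Each gene has 1 panel, with a dashed line at the start site. Points are aged and young OTC Tprog and Tterm, coloured by state, with circles for aged and open triangles for young hosts. Over the 48 libraries Nr4a2 averaged 895 normalized reads per kb at +8.1 kb, 337 at -0.1 kb and 231 at +21 kb.

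Reads in peaks ran from 5638413 to 16159054 in the 24 aged libraries and from 6589023 to 29942755 in the 24 young ones. Peaks of CD8 T cell marker genes (Cd3d, Cd3e, Cd3g, Cd2, Cd8a, Cd8b1, Lck) were present for 7 of 7 genes, at group means of 2247 to 2896 normalized reads per gene. Group means per gene were 144 to 229 for melanoma markers, with no peak at Tyr, Dct or Tyrp1, and 258 to 391 for myeloid markers, with none at Csf1r, Lyz2 or Adgre1. They were 93.9 to 264 for CD4 T cell markers, with none at Foxp3, 1104 to 1456 for NK cell markers and 614 to 820 for stromal and endothelial markers, with none at Col1a2; the part of these in the results was not tested. The brightest peaks also shifted between groups: the 99th percentile of the normalized reads, expressed as a log2 difference, was lower with the Zfp219 guide (-0.08 in aged, -0.08 in young hosts) and with the Dusp5 guide (-0.11 and -0.07) than with OTC, and was 0.20 higher in aged OTC Ttran than in Tprog. For Tprog against Tterm in OTC cells it was -0.15 in aged and 0.06 in young hosts, and for Ttad against Tprog 0.12. Strong Nr4a peaks share this range of values, so values after quantile normalization, which equalises it, are given beside several of the results. For summed signal the quantile normalization was applied to the sums of all genes and not to the peaks. It therefore does not equalise the peak values behind a sum.

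Summing each gene's peaks gave a level for every group. Nr4a1 ranked by state: its 4 highest group means were all Tprog, from 4846 ± 37.1 normalized reads (SD, n = 2) in aged OTC Tprog to 4515 ± 19 (n = 2) in aged Dusp5 Tprog, and its 5 lowest held 4 Tterm groups, down to 3279 ± 57.7 (n = 3) in young Dusp5 Tterm. Nr4a2 ranked by host and guide: the 4 aged OTC groups were its 4 highest, from 4524 ± 116 (n = 2) in Ttran to 4054 ± 192 (n = 2) in Tprog, and the 8 lowest were all young, down to 3393 ± 174 (n = 2) in young Zfp219 Tprog. Nr4a3 varied least, from 5864 ± 55.6 (n = 2) in young OTC Tprog to 4888 ± 25.3 (n = 3) in young Zfp219 Tterm; its top 5 groups were all OTC, and their means differed by less than the spread between libraries of aged OTC Ttad (5846 ± 380, n = 2). Across the 21 group means of the log2 sums, Pearson's r was 0.82 between Nr4a1 and Nr4a3, 0.65 between Nr4a2 and Nr4a3 and 0.54 between Nr4a1 and Nr4a2; these points share libraries and depth, and the values are descriptions.

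**Figure D2:**
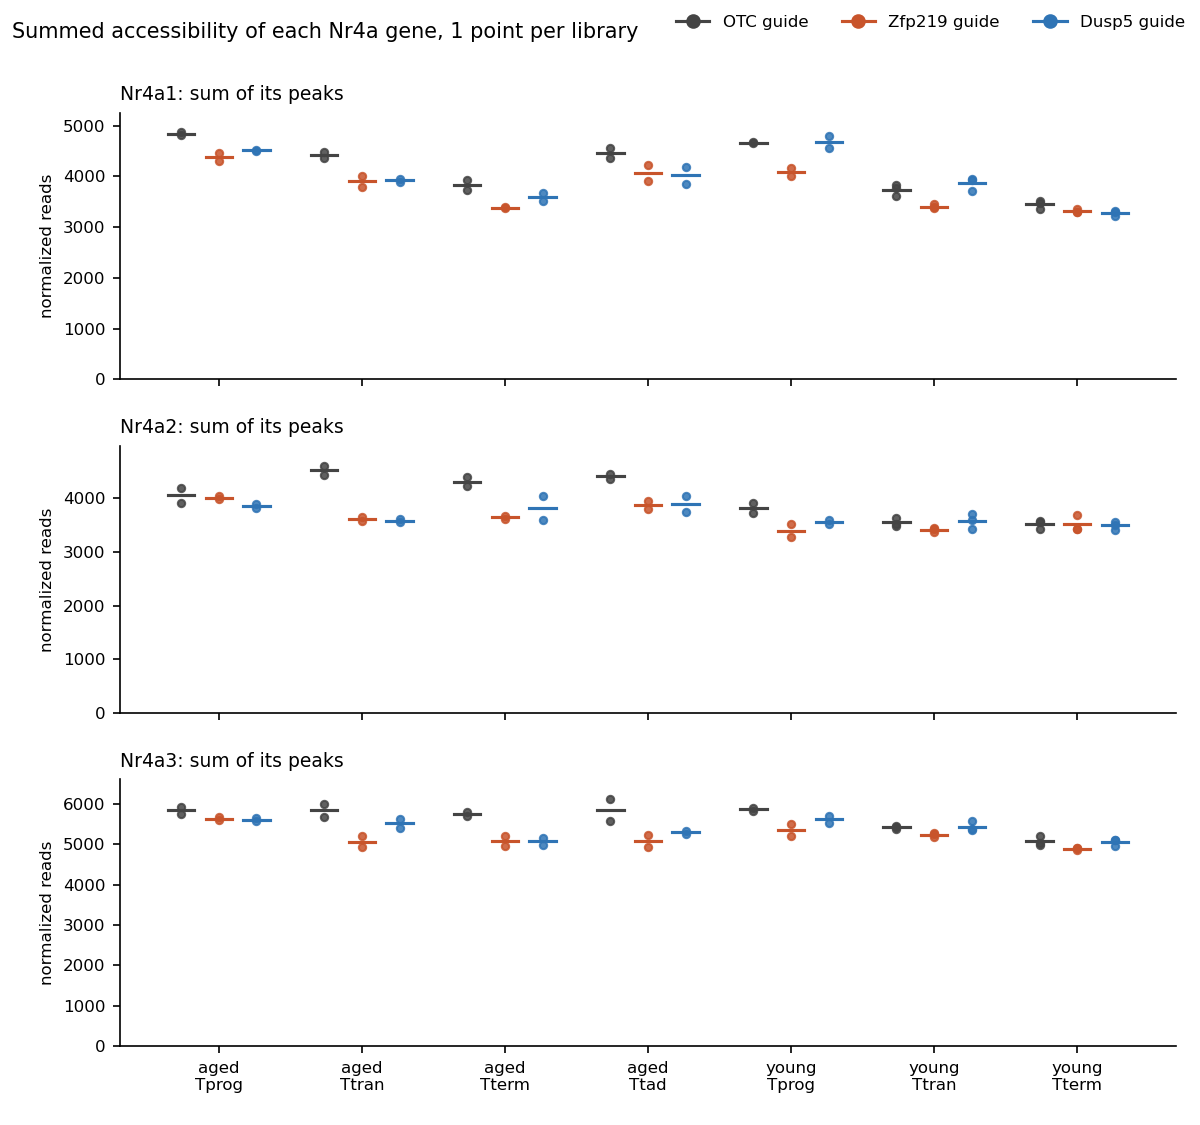
Summed normalized reads of all peaks of Nr4a1, Nr4a2 and Nr4a3 (vertical axis, from 0) by host age and state, coloured by guide, with 1 point per library and a line at the group mean. Nr4a1 falls from Tprog to Tterm in both ages, and for Nr4a2 the aged OTC libraries lie highest.

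The first comparison asks how Nr4a chromatin differed between progenitor and terminal cells carrying the control guide. Peaks of Nr4a1 that passed were all higher in Tprog than in Tterm, 4 of 6 in aged and 6 of 6 in young hosts, while the Nr4a3 locus held peaks that went both ways. Of the 6 young Nr4a1 calls, only those at -10.4 and -8.3 kb stood without each library in turn. Nr4a2 had 1 called peak in young hosts and none in aged ones. In aged hosts 10 of the 24 peaks passed the test, 6 higher and 4 lower in Tprog, and among all peaks 20.1% passed, 8.88% higher and 11.2% lower. In young hosts 15 passed, 13 higher and 2 lower, against 26.5% of all peaks, 13.9% higher and 12.6% lower. The median log2 fold change of the 24 was 0.14 in aged and 0.32 in young hosts, against 0.01 and 0.01 over all peaks. As libraries are pools of sorted cells, fewer cells with an open site and less accessibility per cell cannot be told apart. In aged OTC cells the summed signal of the stromal and endothelial markers was 3068 normalized reads in Tprog and 4100 in Tterm, and that of the CD4 T cell markers 250.4 and 455; their part in these results was not tested.

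The -8.3 kb peak of Nr4a1 (chr15:101258086-101259032) passed in both ages. In aged OTC cells the 2 libraries had 1120 and 1036 normalized reads in Tprog, 955 and 805 in Ttran, 707 and 758 in Tterm and 934 and 989 in Ttad. In young OTC cells they had 957 and 1080 in Tprog, 724, 782 and 740 in Ttran and 616, 645 and 610 in Tterm. Tprog lay above Tterm with no overlap in either age, and Ttran lay between the 2. The log2 fold change of Tprog over Tterm was 0.56 ± 0.10 (SE; adjusted p = 9.48e-06, limma) in aged and 0.70 ± 0.09 (adjusted p = 1.34e-09) in young hosts. The same contrast in cells with the other 2 guides rests on other libraries, and over the 6 combinations of guide and age this peak was higher in Tprog in 6 and passed in 6, with log2 fold changes of 0.55 to 0.89. In each of those 6 combinations between 18.8% and 29.8% of all peaks passed.

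The weaker -10.4 kb peak had the largest Nr4a1 change. It held 180 and 211 normalized reads in aged OTC Tprog against 74.1 and 94.4 in Tterm, and 127 and 157 in young OTC Tprog against 69.5, 62.1 and 41.6 in Tterm. The groups did not overlap, and the log2 fold changes were 1.21 ± 0.27 (adjusted p = 0.000364) and 1.304 ± 0.249 (adjusted p = 1.76e-05). It passed in 5 of the 6 combinations and was higher in Tprog in 6. At the +9.0 kb peak just past the gene, aged OTC libraries had 217 and 261 in Tprog against 112 and 126 in Tterm (log2 fold change 0.998 ± 0.246, adjusted p = 0.00126). In young OTC cells the call at this peak was lost without 3 of the 5 libraries. Its log2 fold changes with 1 library left out were 0.55 to 0.76.

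The other Nr4a1 peaks had smaller differences. At -20.1 kb young OTC libraries held 1352 and 1259 normalized reads in Tprog against 1071, 1074 and 1066 in Tterm. That call was lost without 1 of the 5 libraries, and its log2 fold changes with 1 left out were 0.23 to 0.34. At the start site the log2 fold change of Tprog over Tterm was 0.12 in aged hosts, which did not pass, and 0.31 ± 0.08 (adjusted p = 0.000865) in young hosts, a call lost without young OTC Tprog replicate 1 (adjusted p = 0.0526). At -12.7 kb, where the RefSeq body begins, it was 0.46 ± 0.12 (adjusted p = 0.00382) in aged and 0.43 ± 0.11 (adjusted p = 0.00209) in young hosts; the first was lost without aged OTC Tterm replicate 2 (adjusted p = 0.235) and the second without young OTC Tprog replicate 2 (adjusted p = 0.0694). Summed over its 6 peaks, Nr4a1 was higher in Tprog by 0.34 ± 0.04 (adjusted p = 1.98e-10) in aged and 0.44 ± 0.04 (adjusted p = 1.06e-17) in young hosts, and the sum passed in 6 of 6 combinations of guide and age (0.30 to 0.52). Of all genes with a peak, 25% passed by their summed signal in aged and 34.6% in young OTC cells.

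**Figure D3:**
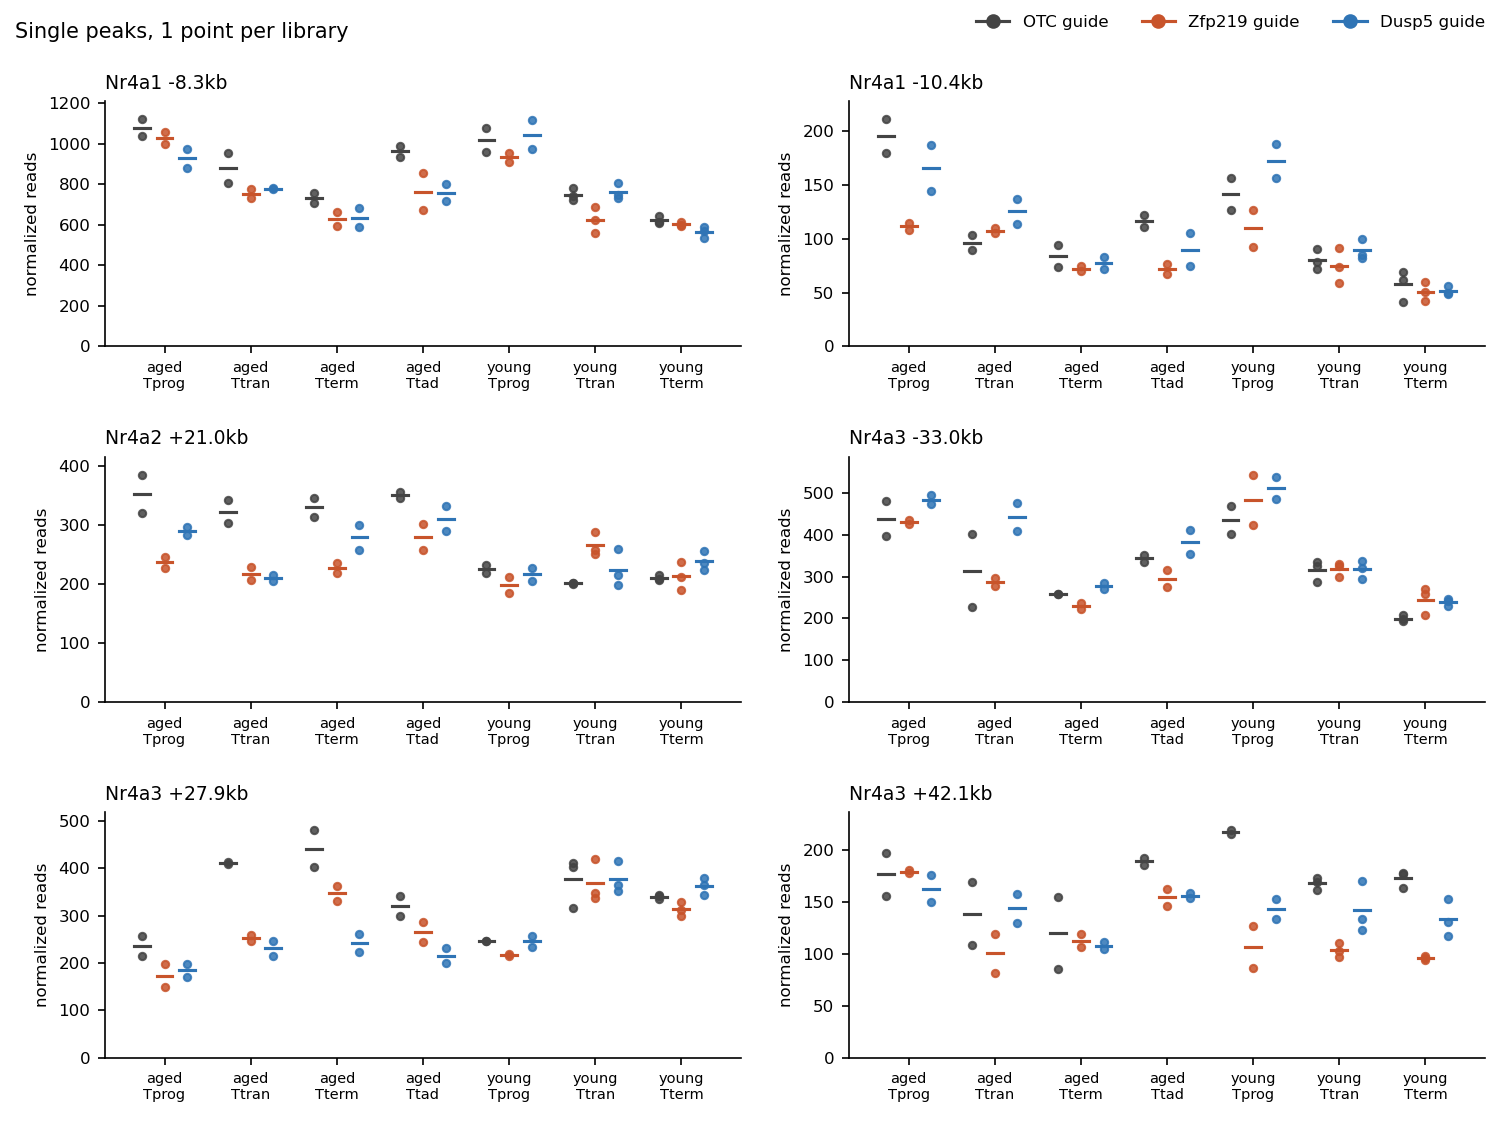
Normalized reads (vertical axis, from 0) of 6 single peaks by host age and state, 1 point per library with a line at the group mean, coloured by guide. Nr4a1 -8.3kb, Nr4a1 -10.4kb and Nr4a3 -33.0kb fall from Tprog to Tterm, Nr4a3 +27.9kb is lowest in Tprog, Nr4a2 +21 kb is highest in aged OTC cells, and at Nr4a3 +42.1kb young OTC libraries lie above young libraries with the Zfp219 guide.

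At Nr4a3, called peaks went in both directions. The -33.0 kb peak (chr4:48011873-48012824) held 480 and 397 normalized reads in aged OTC Tprog, 402 and 226 in Ttran and 259 and 258 in Tterm. In young OTC cells it held 470 and 402 in Tprog, 334, 286 and 324 in Ttran and 207, 194 and 197 in Tterm. Both ages showed Tprog above Tterm without overlap, by log2 fold changes of 0.75 ± 0.16 (adjusted p = 8.71e-05) and 1.12 ± 0.14 (adjusted p = 3.36e-10), and the peak passed in 6 of 6 combinations of guide and age (0.75 to 1.12).

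The intragenic +27.9 kb peak of Nr4a3 (chr4:48072745-48073686) ran the opposite way. Aged OTC libraries held 215 and 258 normalized reads in Tprog, 409 and 413 in Ttran, 480 and 403 in Tterm and 342 and 299 in Ttad. Young OTC libraries held 246 and 246 in Tprog, 411, 404 and 316 in Ttran and 344, 335 and 343 in Tterm. Every Tprog library lay below every Ttran and Tterm library of its age. The log2 fold change of Tprog over Tterm was -0.90 ± 0.15 (adjusted p = 2.27e-06) in aged and -0.47 ± 0.14 (adjusted p = 0.00721) in young hosts, the latter lost without either young OTC Tprog library (adjusted p up to 0.0543). It was lower in Tprog in 6 of 6 combinations and passed in 5.

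A pair of weak peaks further upstream of Nr4a3 was lower in Tprog than in Tterm in aged OTC cells. At -80.5 kb the aged OTC libraries held 10.2 and 27.5 normalized reads in Tprog, 25.6 and 47.8 in Ttran, 62.1 and 57.7 in Tterm and 57.0 and 28.3 in Ttad, and young libraries held 37.3 and 44.5 in Tprog against 82.2, 81.8 and 82.1 in Tterm. The log2 fold changes of Tprog over Tterm were -1.77 ± 0.39 (adjusted p = 0.000291), lost without aged OTC Tprog replicate 1 (adjusted p = 0.112), and -0.99 ± 0.36 (adjusted p = 0.0293), lost without any 1 of the 5 libraries (adjusted p up to 0.189). Over the 6 combinations the peak was lower in Tprog in 6 and passed in 5. At -77.6 kb aged OTC libraries held 45.3 and 55.9 in Tprog, 116 and 110 in Ttran, 136 and 133 in Tterm and 46.9 and 44.4 in Ttad. Here Tprog and Ttad, each gated as Tim-3 negative, were both low, with log2 fold changes against Tterm of -1.40 ± 0.30 (adjusted p = 0.000137) and -1.54 ± 0.30 (adjusted p = 0.000131). In young OTC cells the -77.6 kb values overlapped, with 55.9 and 104 in Tprog and 70.8, 60.5 and 107 in Tterm (log2 fold change -0.02). With the other 2 guides young Tprog lay below Tterm without overlap. Zfp219 libraries held 34.7 and 30.5 against 83.6, 69.6 and 83.4, and Dusp5 libraries 68.0 and 66.1 against 101, 134 and 106.

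The promoter of Nr4a3 hardly differed between states: at -0.1 kb the OTC libraries held 1088 and 1085 normalized reads in aged Tprog, 1021 and 1052 in aged Tterm, 973 and 958 in young Tprog and 940, 1092 and 1003 in young Tterm. The summed Nr4a3 signal did not pass between Tprog and Tterm in aged OTC cells (0.02 ± 0.04, adjusted p = 0.718), but it passed there after quantile normalization and as the mean of the 3 guides (up to 0.14). Over guides and ages it was higher in Tprog in 6 of 6 combinations and passed in 5. It was 0.21 ± 0.04 higher in Tprog in young ones (adjusted p = 4.14e-07), or 0.10 over the 5 peaks of the gene body alone (adjusted p = 0.131). In young hosts a further 5 Nr4a3 peaks (-10.5, -2.1, +2.7, +5.0 and +29.7 kb) were higher in Tprog, by 0.19 to 0.73. The first of these 5 stood without each of the 5 libraries in turn, each of the other 4 was lost without at least 3 of them, and over the 24 peaks the count of 15 fell to 5 without young OTC Tprog replicate 1. In aged hosts the +5.0 kb peak was lower in Tprog (320 and 362 against 468 and 448; -0.43 ± 0.16, adjusted p = 0.0454), a call lost without any 1 of the 4 libraries (adjusted p up to 0.295), and the +42.1 kb peak was 0.61 ± 0.23 higher (adjusted p = 0.047), lost without either Tprog library or Tterm replicate 1 (adjusted p up to 0.762) and by edgeR (adjusted p = 0.0722).

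Nr4a2 showed no called peak between Tprog and Tterm in aged OTC cells. Its dominant +8.1 kb peak held 3075 and 3442 normalized reads in aged Tprog and 3573 and 3416 in aged Tterm, which overlap. In young OTC cells it held 3265 and 3109 in Tprog and 2851, 2912 and 2759 in Tterm, a log2 fold change of 0.17 ± 0.05 (adjusted p = 0.00751) that was lost without young OTC Tprog replicate 1 (adjusted p = 0.148) and after quantile normalization (0.08, adjusted p = 0.219). The Nr4a2 start site peak did not pass in either age, with 457 and 428 against 476 and 499 in aged hosts and 423 and 391 against 492, 442 and 459 in young hosts.

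**Figure D4:**
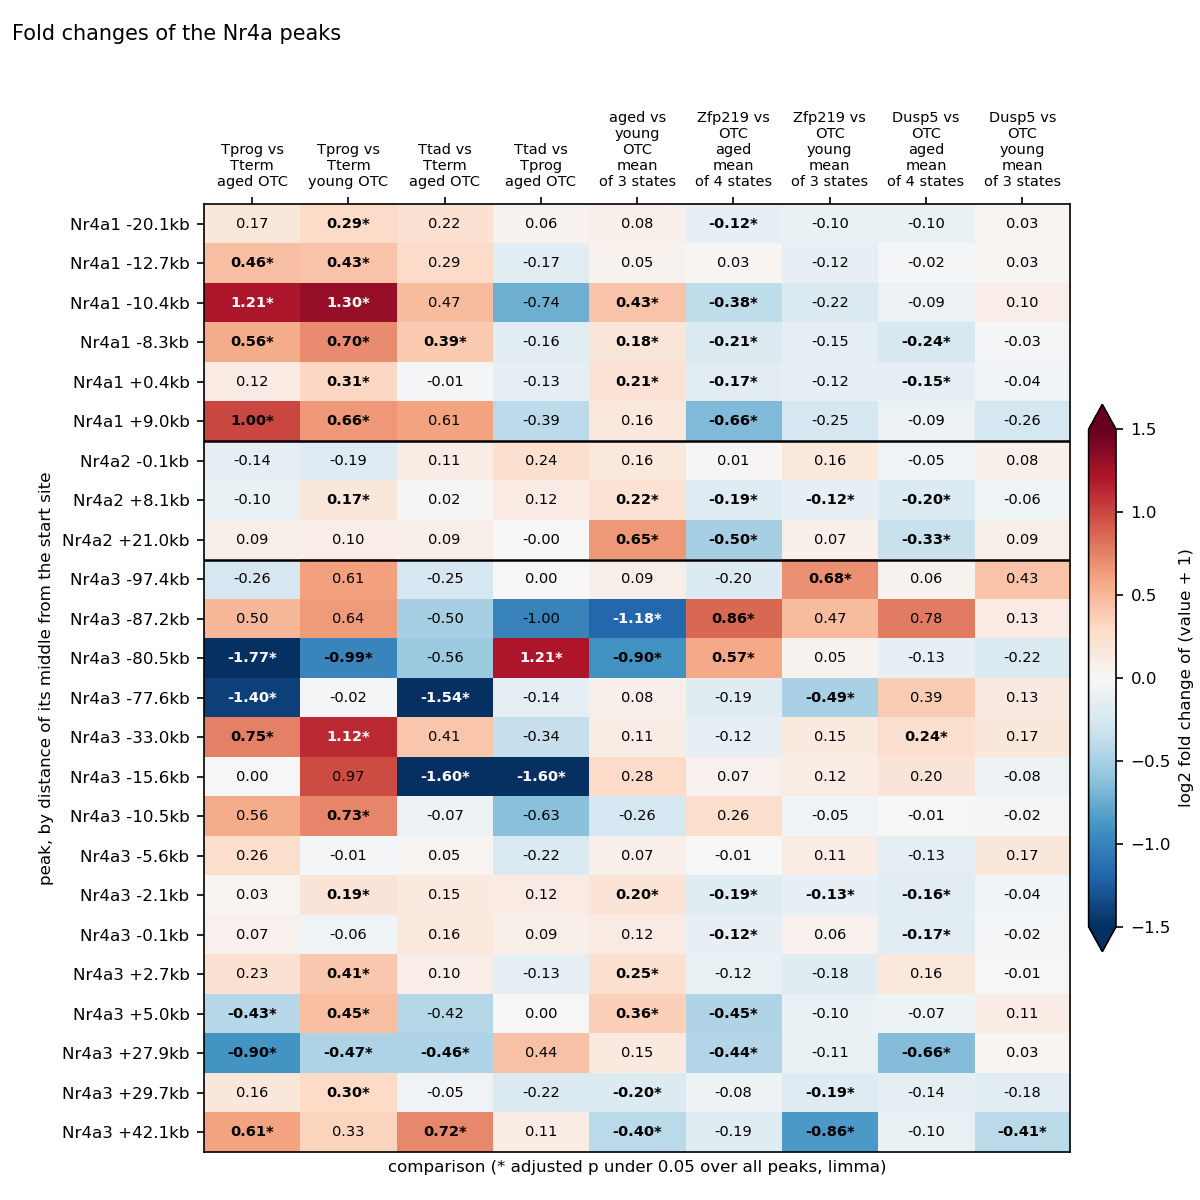
Log2 fold changes on the log2(value + 1) scale of the 24 peaks (rows, by distance from the start site) in 9 comparisons (columns), red for higher and blue for lower, with bold type and a star where limma's adjusted p over all peaks was under 0.05. The Nr4a1 block is positive throughout the Tprog against Tterm columns, the Nr4a3 block is mixed, and most starred values of the aged guide columns are negative.

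Ttran, the double-positive cells, were compared with both other sorted states. Against Tprog, 8 of the 24 peaks passed in aged OTC cells, 3 higher and 5 lower; of all peaks 17% passed, 9.99% higher and 6.98% lower. In young ones 8 passed, 1 higher and 7 lower, against 16.9% of all peaks, 9.07% higher and 7.82% lower. In each age 2 of the 8 calls stood without each library in turn, and the count fell to 3 without Tprog replicate 1. Against Tterm, 2 passed in aged hosts, 1 higher and 1 lower, where 3.22% of all peaks passed, 1.87% higher and 1.35% lower. In young hosts 5 passed, 4 higher and 1 lower, where 8.38% of all peaks passed, 5.02% higher and 3.36% lower. The Nr4a3 +27.9 kb peak was already high in Ttran, by 0.80 ± 0.15 over Tprog in aged (adjusted p = 3.77e-05) and 0.60 ± 0.14 in young hosts (adjusted p = 0.000712), and it passed in 5 of 6 combinations of guide and age. The Nr4a1 -8.3 kb peak was lower in Ttran than in Tprog by 0.44 ± 0.09 in young OTC cells (adjusted p = 0.000165), and in aged OTC cells the value of -0.30 ± 0.10 (adjusted p = 0.0305) was lost without either Tprog library or Ttran replicate 2 (adjusted p up to 0.405). It was lower in 6 of 6 combinations and passed in 5.

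Between Ttran and Tterm the summed Nr4a1 signal was 0.21 higher in aged OTC Ttran (adjusted p = 0.000449, limma), where 8.34% of genes passed. The Nr4a3 -33.0 kb peak was higher in young OTC Ttran than in Tterm by 0.65 ± 0.13 (adjusted p = 0.000135). Over guides and ages it was higher in 6 of 6 combinations and passed in 3. In each combination 1.12% to 8.89% of all peaks passed this contrast. The start site peak of Nr4a2 was lower in young OTC Ttran (310, 364 and 381 normalized reads) than in Tterm (492, 442 and 459), by -0.40 ± 0.11 (adjusted p = 0.00968), lost without Ttran replicate 1 or Tterm replicate 1 (adjusted p up to 0.12). The dominant Nr4a2 +8.1 kb peak was 0.21 ± 0.05 higher in aged OTC Ttran (3833 and 3705) than in Tprog (adjusted p = 0.00274), in a comparison where the 99th percentile was also 0.20 higher; after quantile normalization the value was -0.06 (adjusted p = 0.463), as the mean over the 3 guides it was 0.01, and without aged OTC Tprog replicate 1 it was lost (adjusted p = 0.223). The Nr4a3 -87.2 kb peak, listed at 0 and 4.78 in the aged OTC Ttran libraries against 39.6 and 20.4 in Tprog, passed as well (adjusted p = 6.77e-07); it is the weakest of the 24 peaks and held 18.5 to 23.2 in young OTC Ttran.

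Relative to Tterm, Ttad cells, negative for both sort markers, had a higher Nr4a1 sum, as aged OTC Ttran did, and were low at 1 distal Nr4a3 peak. Their Nr4a1 sum did not pass against that of aged OTC Ttran (log2 fold change 0.007, adjusted p = 0.949, limma). Of the 24 peaks, 5 passed against Tterm, 2 higher and 3 lower, where 7.28% of all peaks passed, 3.02% higher and 4.26% lower. Against Tprog 2 passed, 1 higher and 1 lower (6.55% of all peaks, 3.82% higher and 2.73% lower). Against Ttran 2 passed, 1 higher and 1 lower (7.74% of all peaks, 3.02% higher and 4.72% lower). At Nr4a1 the summed signal was 4554 and 4355 normalized reads in aged OTC Ttad, above Tterm (3933 and 3738) by 0.22 ± 0.04 (adjusted p = 0.000128; 12.1% of genes passed), and it passed in 3 of 3 guides. Its difference from Tprog, -0.12 ± 0.04, did not pass (adjusted p = 0.0584) but did in 4 of 9 alternatives (quantile normalization, edgeR, peaks over the gene body and the mean of the 3 guides), and with the Dusp5 guide it was -0.17 and passed (adjusted p = 0.00503). The Nr4a1 -8.3 kb peak was 0.39 ± 0.10 higher in Ttad than in Tterm (adjusted p = 0.00663), a call lost without Ttad replicate 2 or Tterm replicate 1 (adjusted p up to 0.117).

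At Nr4a3 -77.6 kb, Ttad overlapped Tprog and lay below Tterm and Ttran (-1.29 ± 0.30 against Ttran, adjusted p = 0.00205), and the drop against Tterm passed in 2 of 3 guides and was negative in 3. At Nr4a3 +27.9 kb the Ttad libraries lay between Tprog and Tterm without overlapping either, and the value against Tterm of -0.46 ± 0.15 (adjusted p = 0.0487) was lost without any 1 of the 4 libraries (adjusted p up to 0.411). At +42.1 kb Ttad (193 and 186) was higher than Tterm (85.0 and 155) by 0.72 ± 0.23 (adjusted p = 0.036), lost without either Ttad library or Tterm replicate 1 (adjusted p up to 0.685) and by edgeR. The other calls were at the weak -80.5, -87.2 and -15.6 kb peaks: at -15.6 kb the Ttad libraries held 10.1 and 12.3 normalized reads against 27.2 and 46.7 in Tterm and 32.8 and 39.0 in Tprog, and each call there was lost without at least 3 of the 4 libraries.

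The next comparison sets aged against young hosts in cells with the control guide, averaged over Tprog, Ttran and Tterm. Of the 24 peaks, 12 passed; aged cells had more signal at 8 of them and less at 4, against 36.5% of all peaks, 17.3% higher and 19.1% lower. Sample numbers in the deposited column names start again for each host age, so age and processing of the libraries in 2 sets cannot be told apart. The summed signal was higher in aged hosts for all 3 genes, by 0.24 ± 0.03 for Nr4a2 (adjusted p = 3.05e-15), 0.15 ± 0.02 for Nr4a1 (adjusted p = 6.48e-08) and 0.09 ± 0.02 for Nr4a3 (adjusted p = 0.000103), while 43% of all genes passed in either direction. After quantile normalization of the gene sums the Nr4a3 value was 0.04 and did not pass (adjusted p = 0.0923), and the other 2 did. By state, none of the 3 sums passed in Tprog (0.05 for Nr4a1, 0.09 for Nr4a2 and -0.01 for Nr4a3). All 3 passed in Ttran (0.25, 0.35 and 0.11) and in Tterm (0.15, 0.29 and 0.18). Shares of all genes by state are not given here, and of all peaks 15.4%, 18.3% and 18.9% passed in Tprog, Ttran and Tterm. Tested directly, the age difference in Tprog less that in Tterm did not pass for Nr4a1 (-0.10, adjusted p = 0.356, limma). It passed for Nr4a2 and Nr4a3 before but not after quantile normalization. The summed signal of the myeloid markers was 1548 to 1878 normalized reads in the aged groups and 2060 to 2345 in the young ones, and its part was not tested. The median log2 fold change over all peaks was 0.00.

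The age difference with the smallest adjusted p among the 24 peaks lay beyond the end of Nr4a2. At +21 kb (chr2:57102466-57103562) aged OTC libraries held 385 and 320 normalized reads in Tprog, 343 and 303 in Ttran and 345 and 314 in Tterm. Young OTC libraries held 218 and 232 in Tprog, 200, 202 and 202 in Ttran and 209, 215 and 206 in Tterm. All 6 aged libraries lay above all 8 young ones, by a log2 fold change of 0.65 ± 0.09 (adjusted p = 7.74e-10), and the peak passed in each of the 3 states on its own (0.64 to 0.68). The dominant +8.1 kb peak was 0.22 ± 0.03 higher in aged hosts (adjusted p = 1.59e-09) and 0.10 higher after quantile normalization (adjusted p = 0.00526). By state the difference was 0.33 in Ttran, 0.30 in Tterm and 0.03 in Tprog.

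Among Nr4a1 peaks the start site peak was 0.21 ± 0.05 higher in aged OTC cells (adjusted p = 6.58e-05) and the -8.3 kb peak 0.18 ± 0.05 higher (adjusted p = 0.00605), the latter lost without aged OTC Ttran replicate 1 (adjusted p = 0.0574). The Nr4a3 peaks at -2.1 kb (0.20 ± 0.04, adjusted p = 2.06e-05) and +5.0 kb (0.36 ± 0.09, adjusted p = 0.000451) were higher in aged hosts. Those at -80.5 kb (-0.90 ± 0.21, adjusted p = 0.000349) and +42.1 kb (-0.40 ± 0.12, adjusted p = 0.00704) were lower, and the last was lost without aged OTC Tterm replicate 1 or Ttran replicate 1 (adjusted p up to 0.123).

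The guide comparisons share their OTC libraries, and the aged OTC libraries also entered the age comparison, so Zfp219, Dusp5 and age values at a peak are not independent of each other. With the Zfp219 guide in aged hosts, averaged over 4 states, 13 of the 24 peaks passed, 2 higher and 11 lower than OTC, against 25.8% of all peaks, 12.1% higher and 13.7% lower. With the Dusp5 guide in aged hosts 8 passed, 1 higher and 7 lower, against 12.2% of all peaks, 4.35% higher and 7.87% lower. After quantile normalization 4 of the 24 passed with Dusp5. The median log2 fold change of the 24 peaks was -0.15 for Zfp219 and -0.10 for Dusp5, against 0.01 for each over all peaks. In young hosts, over 3 states, 6 passed with Zfp219, 1 higher and 5 lower, against 7.07% of all peaks, 1.92% higher and 5.15% lower; the count was 2 after quantile normalization and 3 without young OTC Tprog replicate 2. With Dusp5 1 passed, which was lower, against 3.82% of all peaks, 1.8% higher and 2.02% lower.

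Averaged over the 4 states, the summed signal fell in aged hosts for all 3 genes with both guides. With Zfp219 the log2 fold changes were -0.16 ± 0.02 for Nr4a1, -0.19 ± 0.02 for Nr4a2 and -0.16 ± 0.02 for Nr4a3 (adjusted p from 1.18e-09 to 5.8e-12; 36.8% of genes passed). With Dusp5 they were -0.13 ± 0.02, -0.19 ± 0.02 and -0.11 ± 0.02 (adjusted p from 1.15e-06 to 1.78e-11; 20.6% of genes). After quantile normalization of the gene sums the Zfp219 values shrank to -0.06, -0.10 and -0.06, which still passed. The Dusp5 values shrank to -0.03, -0.09 and -0.01, of which only the one for Nr4a2 passed. The peaks were not equalised in this setting. With quantile normalization of the peaks, the Nr4a2 +8.1 kb peak, which holds 81.2% of the Nr4a2 signal, passed with neither guide in aged hosts. In young hosts the 3 Zfp219 values, -0.13 ± 0.02, -0.08 ± 0.02 and -0.08 ± 0.02, passed before but not after quantile normalization (-0.06, -0.02 and 0.01). The value for Nr4a2 was also lost without young OTC Tprog replicate 1 or young Zfp219 Tprog replicate 1 (adjusted p up to 0.119), and the 3 Dusp5 values (-0.01, -0.03 and -0.02) did not pass.

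At Nr4a2 +21 kb the aged libraries with the Zfp219 guide held 246 and 227 normalized reads in Tprog, 207 and 228 in Ttran, 236 and 219 in Tterm and 257 and 302 in Ttad. All 8 lay below the lowest of the 8 aged OTC libraries, which ran from 303 to 385. Aged Dusp5 libraries held 296 and 284 in Tprog, 215 and 205 in Ttran, 258 and 301 in Tterm and 333 and 289 in Ttad, and 1 of the 8 lay within the OTC range. The log2 fold changes against OTC were -0.50 ± 0.08 (adjusted p = 3.56e-07) for Zfp219 and -0.33 ± 0.08 (adjusted p = 0.00194) for Dusp5. In young hosts the values were 0.07 and 0.09, and neither passed.

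The Nr4a3 +27.9 kb peak was lower in aged hosts with either guide. Aged Zfp219 libraries held 149 and 197 normalized reads in Tprog, 259 and 246 in Ttran, 364 and 331 in Tterm and 287 and 245 in Ttad; aged Dusp5 libraries held 170 and 198, 216 and 246, 261 and 224, and 199 and 232 in the same order. In every state both guides lay below the 2 OTC libraries, and the log2 fold changes were -0.44 ± 0.08 (adjusted p = 2.81e-06) for Zfp219 and -0.66 ± 0.08 (adjusted p = 1.83e-10) for Dusp5. The log2 fold change of Tprog over Tterm at this peak in aged hosts was -0.90 with OTC, -1.01 with Zfp219, which passed, and -0.39 with Dusp5, which did not; these 3 values were not tested against each other. In young hosts the guides gave -0.11 and 0.03 against OTC, and neither passed.

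Other peaks fell with the Zfp219 guide in aged hosts. The Nr4a1 +9.0 kb peak was lower by -0.66 ± 0.12 (adjusted p = 1.16e-05), with a negative value in 4 of 4 states, against -0.09 for Dusp5. The Nr4a3 +5.0 kb peak was lower by -0.45 ± 0.08 (adjusted p = 4.04e-06), against -0.07 for Dusp5. The difference between the 2 guides themselves was not tested. The strongest peaks fell by similar amounts with each guide, Nr4a2 +8.1 kb by -0.19 ± 0.03 and -0.20 ± 0.03 and Nr4a3 -2.1 kb by -0.19 ± 0.04 and -0.16 ± 0.04, in the range where the 99th percentile moved. After quantile normalization only the Zfp219 value at Nr4a3 -2.1 kb still passed (-0.09, adjusted p = 0.039), and the Nr4a2 +8.1 kb values were -0.01 and -0.06. The Nr4a1 -8.3 kb peak fell by -0.21 ± 0.05 (adjusted p = 0.000693) with Zfp219 and by -0.24 ± 0.05 (adjusted p = 0.000428) with Dusp5, while its order from Tprog to Tterm was the same with each guide.

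In young hosts the largest called guide difference was at Nr4a3 +42.1 kb (chr4:48086605-48088193). Young OTC libraries held 216 and 219 normalized reads in Tprog, 174, 162 and 169 in Ttran and 164, 177 and 178 in Tterm. With the Zfp219 guide they held 127 and 86.3, 111, 103 and 96.5, and 96.2, 97.8 and 94.3 in the same order, and all 8 lay below all 8 OTC libraries. With the Dusp5 guide they held 153 and 133, 134, 171 and 123, and 131, 117 and 153, which overlapped the OTC range in 1 library. The log2 fold changes were -0.86 ± 0.12 (adjusted p = 4.31e-08) for Zfp219, called in 3 of 3 states, and -0.41 ± 0.12 (adjusted p = 0.027) for Dusp5, the latter lost without either young OTC Tprog library, Dusp5 Tprog replicate 2, Dusp5 Tterm replicate 2 or Dusp5 Ttran replicate 3 (adjusted p up to 0.0979). In aged hosts the values were -0.19 and -0.10, and neither passed.

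Whether these differences themselves depended on host age was tested directly. Of the 24 peaks, 4 passed for Zfp219, 1 with a higher and 3 with a lower aged difference (9.11% of all peaks, 4.09% higher and 5.01% lower). For Dusp5 3 passed, all lower (4% of all peaks, 1.27% higher and 2.73% lower), and for the difference between Tprog and Tterm in OTC cells 3 passed, all lower (2.32% of all peaks, 0.512% higher and 1.81% lower). For Zfp219 the aged difference was more negative than the young one at Nr4a2 +21 kb by -0.63 ± 0.12 (adjusted p = 0.000143) and more positive at Nr4a3 +42.1 kb by 0.71 ± 0.18 (adjusted p = 0.00378). For Dusp5 it was more negative at Nr4a3 +27.9 kb by -0.72 ± 0.12 (adjusted p = 1.16e-05) and at Nr4a2 +21 kb by -0.47 ± 0.12 (adjusted p = 0.0114).

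Genes that act before, beside or after the NR4A receptors were described in the same table. The calcineurin and NFAT list (Nfatc1, Nfatc2, Nfatc3, Nfat5, Ppp3ca, Ppp3cb, Ppp3cc, Rcan1) had 80 peaks, of which 15 passed between Tprog and Tterm in aged OTC cells (5 higher, 10 lower) and 25 in young ones (11 higher, 14 lower), shares of 18.8% and 31.2% against 20.1% and 26.5% of all peaks. By summed signal 4 of the 8 genes passed in aged hosts, all lower in Tprog (Nfatc1 -0.09, Nfatc2 -0.11, Ppp3ca -0.13 and Ppp3cc -0.17), and 3 in young hosts (Nfat5 0.33, Ppp3ca -0.18 and Ppp3cc -0.25), where 25% and 34.6% of all genes passed. Ppp3ca and Ppp3cc encode catalytic subunits of calcineurin. Among immediate early genes (Egr1, Egr2, Egr3, Fos, Fosb, Jun, Junb, Irf4, Myc), which are transcribed early after receptor signalling as Nr4a genes are, 16 of 58 peaks passed in aged (7 higher, 9 lower) and 23 in young hosts (17 higher, 6 lower), shares of 27.6% and 39.7%. By summed signal 3 of the 9 genes passed in aged hosts (Fos 0.14 ± 0.04, Egr1 -0.15 ± 0.05 and Egr2 -0.30 ± 0.05) and 5 in young hosts, all higher in Tprog (Fos 0.32, Fosb 0.27, Jun 0.36, Junb 0.29 and Irf4 0.13).

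With the Zfp219 guide in aged hosts 24 of the 58 immediate early peaks passed (3 higher, 21 lower; 41.4%, against the 25.8% of all peaks given above), with a median log2 fold change of -0.13. By summed signal 7 of the 9 genes passed, all lower, where 36.8% of all genes passed. Jun fell by -0.27 ± 0.02 (adjusted p = 1.31e-19), Irf4 by -0.19 ± 0.03 (adjusted p = 2.87e-09) and Fosb by -0.15 ± 0.02 (adjusted p = 1.44e-11) in summed signal, without quantile normalization. With Dusp5 in aged hosts 9 of the 58 passed (2 higher, 7 lower), a share of 15.5% against 12.2% of all peaks. Of 8 receptor and factor genes linked to NR4A in exhausted T cells (Tox, Tox2, Pdcd1, Havcr2, Lag3, Tigit, Ctla4, Entpd1), 8 passed by summed signal in aged OTC cells, 2 higher and 6 lower in Tprog, and 5 in young ones, 3 higher and 2 lower. Between Tprog and Tterm, 25% of all genes passed in aged and 34.6% in young OTC cells. Tox was higher in Tprog (0.29 ± 0.04 in aged, 0.20 ± 0.04 in young hosts), as was Tox2 (0.48 ± 0.06 and 0.15 ± 0.06). Havcr2, which encodes the sort marker Tim-3 and so is bound to the gate, was lower in Tprog (-0.83 ± 0.05 and -0.62 ± 0.05), as was Entpd1, which encodes the ectonucleotidase CD39 (-1.19 ± 0.05 and -1.01 ± 0.05). Pdcd1, which encodes the inhibitory receptor PD-1, was lower in Tprog in aged (-0.13 ± 0.03) and higher in young hosts (0.10 ± 0.03). Lag3, Tigit and Ctla4, which encode further inhibitory receptors, were lower in aged hosts (-0.18, -0.20 and -0.10) and did not pass in young ones (0.09, 0.07 and 0.05). Of the 87 peaks in that list, 33 passed in aged (12 higher, 21 lower) and 34 in young OTC cells (16 higher, 18 lower). These were shares of 37.9% and 39.1%, against 20.1% and 26.5% of all peaks. Of the retinoid X receptor partners, Rxra and Rxrb had 9 peaks and Rxrg none. In each age 3 of the 9 passed, with 1 higher and 2 lower in aged and 0 higher and 3 lower in young hosts. The share was 33.3% in each, against the same 20.1% and 26.5% of all peaks.

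By Pearson's r over the 21 group means of log2 summed signal, among genes with at least 0.25 of the member's mean sum, the genes most like Nr4a1 were Fam53b (0.946), Adh4 (0.943) and Amz2 (0.940). Those most like Nr4a2 were LOC108168726 (0.919), Fbxo11 (0.909) and Ino80c (0.895), and those most like Nr4a3 were Dnajb12 (0.911), Gpr183 (0.905) and Rnf157 (0.904). These are the highest of 3918, 4154 and 2574 candidate genes, and the 21 points share libraries, depth and OTC groups.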

How the data were processed

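ATAC-seq was measured in 48 libraries of sorted OT-1 CD8 T cells. Per the submitters' processing notes, which name mm10, Bowtie2 2.2.9, Picard 2.8.0, MACS2 2.1.1, SAMtools 1.3.1 and DESeq2 1.28.1, the authors deposited a normalized signal for 53868 peaks per library; duplicate handling and the shift of insertion sites are not given in the sources used here. The values are whole multiples of 1 step per library, so they are read counts divided by a size factor, and 1 library whose step is near 1 was read the same way. Groups and replicate numbers came from sample titles, with A and Y read as aged and young. Genes and start sites are from RefSeq on GRCm38.p6.

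limma 3.58.1 (R 4.3.3) was fitted to log2(value + 1) over all peaks and libraries with 21 group means and a trended prior; p was adjusted by Benjamini-Hochberg over all 53868 peaks, or over 15018 genes for summed signal, and called at under 0.05. Fold changes on this scale understate changes of weak peaks. Replicates are pools, so p measures the spread between pooled libraries, and whether those of a group hold different mice is not given. Named peaks are the strongest peak and the start site peak of each gene, and in each comparison up to 10 called peaks by size. Alternatives were a pseudocount of 8, omission of the weakest 25% of peaks, quantile normalization, recomputed size factors, library weights, a replicate block, only the compared groups, only peaks over gene bodies, the mean of the 3 guides, omission of each library, and edgeR 4.0.16 on recovered reads; those for summed signal were added after the data were seen. The members, lists and tests were chosen with earlier results of these data known. The scripts were tested on simulated data. Same-numbered libraries did not deviate together: the correlation of their deviations from group means was -0.0148 to 0.0146 over 66 pairs of aged groups and -0.0145 to 0.00992 over 36 pairs of young groups. These values cannot show whether such libraries came from the same mice.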

Additional observations from a re-analysis of the deposited data

Results flagged for a closer look

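The results below stand out because a difference was itself tested for a change with host age and passed (limma, adjusted over all peaks or all genes). Each value is the aged log2 difference minus the young one, from 2 or 3 libraries per group. At Nr4a3 -77.6 kb young Tprog lay below young Tterm without overlap with the Zfp219 and Dusp5 guides, and the test used OTC cells alone. For Tprog against Tterm in OTC cells the values were -0.27 at Nr4a2 +8.1 kb (adjusted p = 0.0276), -1.38 at Nr4a3 -77.6 kb (0.0413) and -0.87 at Nr4a3 +5.0 kb (0.011), and -0.21 for the summed signal of Nr4a2 (0.02) and -0.18 for that of Nr4a3 (0.0117). Every one of these 5 was lost without at least 3 of the 9 libraries left out in turn. The -77.6 kb call was lost without any of 7, with adjusted p of 0.373 without young OTC Tprog replicate 2, and the Nr4a2 +8.1 kb call was lost without aged OTC Tprog replicate 1, aged OTC Tterm replicate 1, young OTC Tprog replicate 1 or young OTC Tterm replicate 3 (adjusted p up to 0.336).

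At Nr4a3 +5.0 kb, aged Tprog and Tterm overlapped with the Zfp219 guide (267 and 306 normalized reads against 281 and 282) and with the Dusp5 guide (343 and 329 against 315 and 434). In OTC cells the state order turned with age: Tprog held 320 and 362 normalized reads against 468 and 448 in Tterm in aged hosts, and 352 and 357 against 288, 253 and 242 in young hosts. That call was lost without aged OTC Tprog replicate 1, aged OTC Tterm replicate 1 or young OTC Tprog replicate 2 (adjusted p up to 0.095).

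For Zfp219 against OTC the values were -0.63 at Nr4a2 +21 kb (adjusted p = 0.000143), -0.42 at Nr4a3 +5.0 kb (0.0172), -0.39 at Nr4a3 +27.9 kb (0.0232) and 0.71 at Nr4a3 +42.1 kb (0.00378), and -0.12 for the summed signal of Nr4a2 (0.0138). The first and the fourth stood without each of the 28 libraries in turn. The second was lost without young Zfp219 Tprog replicate 2 (adjusted p = 0.0717). The third was lost without aged OTC Tprog replicate 2, aged OTC Tterm replicate 1, aged Zfp219 Tprog replicate 1 or aged Zfp219 Tterm replicate 2 (adjusted p up to 0.087). The summed signal was lost without aged OTC Tprog replicate 2 or young Zfp219 Tprog replicate 2 (adjusted p up to 0.0532).

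For Dusp5 against OTC they were -0.15 at Nr4a2 +8.1 kb (0.0206), -0.47 at Nr4a2 +21 kb (0.0114) and -0.72 at Nr4a3 +27.9 kb (1.16e-05), and -0.12 for the summed signal of Nr4a1 (0.0159) and -0.16 for that of Nr4a2 (0.00059). The Zfp219 and Dusp5 values share the OTC libraries of both ages. The +21 kb and +27.9 kb differences stood without each of the 28 libraries. The +8.1 kb call was lost without any of 4 libraries (aged Dusp5 Tterm replicate 1, aged OTC Tprog replicate 2, aged OTC Tterm replicate 1, young OTC Tprog replicate 2; adjusted p up to 0.0959), and the summed Nr4a1 call without aged OTC Tterm replicate 1 or young Dusp5 Tprog replicate 2 (adjusted p up to 0.0526). After quantile normalization none of the 5 summed-signal differences listed here passed, nor did either difference at Nr4a2 +8.1 kb or the one at Nr4a3 -77.6 kb. The 99th percentile of the libraries, as a log2 difference, moved by -0.21 in the state contrast of OTC cells (Tprog against Tterm, aged minus young). For Zfp219 and Dusp5 against OTC, aged minus young, it moved by -0.01 and -0.03. The part of these shifts was not tested. Age and the set of libraries cannot be told apart.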

How the results depend on the processing

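Of the 107 calls on single Nr4a peaks, 66 kept their direction and passed in every alternative that gave a value apart from leaving out libraries; quantile normalization lost 23 and turned 1, comparing the groups alone lost 12, library weights 7 and edgeR 6. Counts of called peaks that moved by over 1.5 times were as follows. With only the compared groups, Dusp5 young 2, Ttad against Tprog 1, against Tterm 2 and against Ttran 1, and Ttran against Tterm in aged hosts 1. With edgeR, Dusp5 young 2 and Ttad against Tprog 0. With library weights, Ttad against Tprog 0, Ttad against Tterm 2 and Ttran against Tterm in aged hosts 1. With quantile normalization, Dusp5 aged 4, Zfp219 young 2, Ttad against Tprog 1, Ttran against Tterm in aged hosts 1 and the age difference of Tprog against Tterm 1, and 19 rather than 29 of the 51 summed-signal tests passed. Of the 29 summed-signal calls, 15 passed again after quantile normalization, 12 were lost and 2 turned sign. In every alternative apart from leaving out libraries, 12 of the 29 held. With a pseudocount of 8, Ttad against Tprog 1 and against Ttran 1; without the weakest 25% of peaks, Ttad against Ttran 1 and Ttran against Tterm in aged hosts 1. The mean of the 3 guides, with more libraries per group, gave Ttad against Tprog 6, against Tterm 9 and against Ttran 4, Ttran against Tprog in aged hosts 13, and Ttran against Tterm 6 in aged and 8 in young hosts. Only the 11 peaks over gene bodies gave fewer by construction: Tprog against Tterm 5 in aged and 9 in young hosts, Ttran against Tprog 4 and 4, Ttran against Tterm 0 and 3, Ttad against Tterm 2, against Tprog 0 and against Ttran 0, age 7, Zfp219 7 and 2 and its age difference 2, Dusp5 5 and 0. These values turned sign: Nr4a2 +8.1 kb in aged Ttran against Tprog with quantile normalization (-0.0637), the Nr4a2 sum in that comparison with quantile normalization (-0.0245) and over the 3 guides (-0.0325), the Nr4a3 sum in young Ttran against Tprog over gene-body peaks (0.0136) and for Zfp219 in young hosts with quantile normalization (0.00728). Apart from these constructions the cause was not tested. Leaving out 1 library at a time, the counts ran from 7 to 9 for Tprog against Tterm in aged and 5 to 14 in young hosts, 3 to 8 and 3 to 7 for Ttran against Tprog, 0 to 2 and 2 to 3 for Ttran against Tterm, 2 to 3, 0 to 1 and 1 to 3 for Ttad against Tterm, Tprog and Ttran, 10 to 13 for age, 9 to 14 and 3 to 7 for Zfp219, 7 to 10 and 0 to 1 for Dusp5, and 0 to 2, 3 to 5 and 2 to 3 for the age differences of state, Zfp219 and Dusp5; a lone library left in a group was assumed to vary like the other groups. The summed-signal count ran from 25 to 30. Whether the replicate numbers pair the samples is not given in the sources used here. With the replicate number as a block, 100 of the 107 peak calls passed again, 7 did not, and no count moved by over 1.5 times. Depth limits the 5 weakest Nr4a3 peaks upstream most.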
